A study of Mus musculus with 16 samples.

Results

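The genes of the proteasome were followed through macrophages that were grown from the bone marrow of 4 mice. The members were all probes whose symbol in the platform annotation began with Psma, Psmb, Psmc, Psmd, Psme, Psmf or Psmg and whose detection p-value fell under 0.01 on 4 or more of 16 arrays. Of 25697 probes on the array, 67 probes of 45 genes carried such a symbol, and 55 probes of 41 genes passed. The 12 probes that did not pass were detected on 0 arrays, and 4 genes, Psma1, Psma6, Psmc6 and Psmd6, had no probe that passed. All probes passing the same detection rule numbered 10224. Among the 55 were 7 probes of the immunoproteasome and its activator, for Psmb8, Psmb9, Psmb10, Psme1 and Psme2, and 48 probes of 36 other genes. Of these 48 probes, 3 met the rule by their symbol only: Psmc3ip, a meiotic recombination factor, with 1 probe, and Psme3ip1, a nuclear protein that binds Psme3, with 2 probes. Psma8, Psmb11, Psmf1, Psmg4 and Psmd3 were not analysed here.

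The series compared macrophages with and without Ndst1, an enzyme that sulfates heparan sulfate chains, in the presence or absence of aggregated low-density lipoprotein (agLDL), which loads macrophages with cholesterol. All groups were C57BL6 mice aged 12 weeks that carried the floxed Ndst1 gene (Ndst1f/f). The mice labelled wild-type lacked the Cre transgene (Ndst1f/f LysMCre-), and those labelled Ndst1-deficient carried it (Ndst1f/f LysMCre+), which drives Cre from the Lyz2 gene in myeloid cells. Bone marrow cells were grown with M-CSF, and the macrophages received 50 µg/ml agLDL for 24 hours in medium with lipoprotein-deficient serum, or no agLDL. Under each genotype label there were 2 mice. Cells of each mouse were kept with and without agLDL, and each of these samples lay on 2 arrays. Arrays are named here by mouse number and duplicate number, as 1.1, 1.2, 2.1 and 2.2, and same-numbered mice of the 2 labels are different animals. Whether duplicate arrays came from separate cultures is not given in the labels, so differences between them may be technical.

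The 26S proteasome degrades proteins that carry ubiquitin chains. Its 20S core is a stack of rings, outer ones of alpha subunits and inner ones of beta subunits, and the beta subunits Psmb5, Psmb6 and Psmb7 cut the protein. The 19S cap holds ATPases (the Psmc genes), which unfold the substrate, and non-ATPase subunits (most Psmd genes), which bind and remove ubiquitin. Interferon induces Psmb8, Psmb9 and Psmb10, which take the places of Psmb5, Psmb6 and Psmb7 to form the immunoproteasome, and Psme1 and Psme2, which form the PA28 activator. Macrophages use this form to make peptides for MHC class I, and Tap1 and Tap2 carry those peptides into the endoplasmic reticulum. Transcription of the standard subunits is known to rise through Nfe2l1 when proteasome activity falls.

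The promoter windows of 5 members are shown because the results below separate the genes of the immunoproteasome from their standard counterparts. Each runs 5′ to 3′ from 250 bases before to 50 bases after the gene's start (base 0), from RefSeq on GRCm38.p6. They are chr17:34197945-34198244 for Psmb8, chr17:34187281-34187580 (minus strand) for Psmb9, chr14:55578244-55578543 for Psme1, chr14:54617946-54618245 (minus strand) for Psmb5 and chr11:70525107-70525406 for Psmb6. Capitals mark matches to GAAA repeated after any 2 bases (interferon-stimulated response element), TTCNNNGAA (gamma-activated site, which reads the same on both strands) or TGACNNNGC (antioxidant response element), searched on both strands.
Psmb8: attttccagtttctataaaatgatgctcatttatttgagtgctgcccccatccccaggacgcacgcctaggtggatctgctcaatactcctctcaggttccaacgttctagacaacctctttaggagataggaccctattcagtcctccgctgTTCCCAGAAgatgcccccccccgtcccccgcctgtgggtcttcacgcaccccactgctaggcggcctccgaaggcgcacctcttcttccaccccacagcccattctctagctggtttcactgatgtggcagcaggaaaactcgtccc
Psmb9: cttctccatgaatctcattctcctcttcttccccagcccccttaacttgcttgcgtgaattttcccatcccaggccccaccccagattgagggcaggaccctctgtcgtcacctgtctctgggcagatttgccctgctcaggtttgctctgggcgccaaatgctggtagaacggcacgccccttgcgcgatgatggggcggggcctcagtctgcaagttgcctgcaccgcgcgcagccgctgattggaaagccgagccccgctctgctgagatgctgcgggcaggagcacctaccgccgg
Psme1: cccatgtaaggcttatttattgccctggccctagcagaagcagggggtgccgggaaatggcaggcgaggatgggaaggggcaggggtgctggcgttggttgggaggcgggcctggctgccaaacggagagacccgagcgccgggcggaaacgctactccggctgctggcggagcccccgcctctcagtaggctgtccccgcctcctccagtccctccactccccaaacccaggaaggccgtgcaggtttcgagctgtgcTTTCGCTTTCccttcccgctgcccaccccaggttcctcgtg
Psmb5: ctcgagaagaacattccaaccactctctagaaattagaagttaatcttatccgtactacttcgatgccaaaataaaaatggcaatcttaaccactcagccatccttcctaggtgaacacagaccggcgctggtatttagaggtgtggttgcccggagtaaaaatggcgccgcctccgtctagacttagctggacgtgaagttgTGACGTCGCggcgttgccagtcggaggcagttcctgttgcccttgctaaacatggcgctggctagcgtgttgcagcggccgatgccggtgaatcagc
Psmb6: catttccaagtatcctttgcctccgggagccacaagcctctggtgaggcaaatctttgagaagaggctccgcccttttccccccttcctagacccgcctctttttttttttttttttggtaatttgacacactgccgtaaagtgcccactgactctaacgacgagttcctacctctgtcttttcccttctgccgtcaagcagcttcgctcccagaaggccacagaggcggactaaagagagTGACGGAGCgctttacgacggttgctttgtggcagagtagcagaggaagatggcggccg
The Psmb8 window held a gamma-activated site at -97 to -89, and the Psme1 window held an interferon-stimulated response element on the minus strand at 9 to 18. The Psmb5 and Psmb6 windows each held an antioxidant response element, at -47 to -39 and at -9 to -1. The Psmb9 window held none of these letters, and 275 of its bases are shared with a window of Tap1, which is read from the other strand. The windows of Psmb10 and Psme2, which are not shown, held none of these letters either. No matches overlapped each other.

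Of the 41 member genes, 35 had a window in the RefSeq table. The interferon-stimulated response element lay in 1 of 5 genes of the immunoproteasome, in 3 of 30 other member genes (Psmb3, Psmd4 and Psmd9) and in 3.99% of 27025 genes. The gamma-activated site lay in 1 of 5, in 2 of 30 (Psmd2 and Psmg1) and in 9.55% of all genes. The antioxidant response element lay in 0 of 5, in 5 of 30 (Psmb5, Psmb6, Psmd9, Psmd12 and Psme4) and in 14.0% of all genes. A match of letters is a description of the window and not a binding site. In the annotation Psmb9, Tap1, Psmb8 and Tap2 are neighbours in this order, and only Emc9 lies between Psme1 and Psme2.

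The arrays detected between 9241 and 10115 probes each. Lyz2, whose locus drives the Cre in the Ndst1-deficient mice, was read as a check of the genotype labels, since no Ndst1 probe was analysed here. Of its 3 probes, ILMN_2939681 read 11.60 to 12.16 on the log2 scale on the 8 arrays of mouse number 1 and 12.72 to 13.46 on the 8 of mouse number 2, and differed by -0.07 and -0.03 between the genotype labels without and with agLDL. ILMN_2766780, a dimmer probe, read 5.36 to 7.13 and 7.68 to 8.98, and differed by -0.54 and 0.15 between the labels. The brightest, ILMN_1252076, read 15.23 to 15.32 and 15.30 to 15.36, and its difference of 0.05 between mouse numbers did not pass (limma adjusted p = 0.422). On 2 of the 3 Lyz2 probes the arrays thus divided by mouse number. No Lyz2 probe passed between the genotype labels, but the fit called 0% of all 10224 probes there, so this cannot check the labels. The check as a whole did not bear out the genotype labels, and the reason was not tested. Groups are called by their labels throughout. The arrays of each genotype label lay on a slide of their own, so slide and label cannot be told apart. Mouse number 2 took positions A, B, E and F on both slides and mouse number 1 took C, D, G and H, so mouse number and position cannot be told apart either. All 5 measured macrophage markers were detected on all 16 arrays, while 6 dendritic and 7 T and NK cell markers were detected on none. Markers of other cells did pass the detection rule: 7 of 7 for neutrophils, 3 of 9 for stromal and endothelial cells and 1 of 4 for B cells.

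Between mouse numbers, the immunoproteasome and PA28 probes had a larger median difference than any other class of members. In every pair of arrays with the same group and duplicate number, Psmb9, Psmb8, Psmb10 and Psme2 read lower in mouse number 2 than in mouse number 1. The limma fit on all 16 arrays, with group and number as terms, called 6 of the 7 probes lower at an adjusted p under 0.05 and 0 higher. The median difference of the 7 probes was -0.36 (log2). Over all 10224 probes, 14.6% were called lower and 16.3% higher, with a median of 0.01. Of the other 48 member probes, 10 were called lower and 0 higher, with a median of -0.13. In RNA from whole cultures, fewer cells of a type and less RNA per cell cannot be told apart.

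Psmb9, which replaces Psmb6, had a log2 normalized signal with a lowest, median and highest value of 10.94, 11.12 and 11.58 on the 8 arrays of mouse number 1. On the 8 arrays of mouse number 2 these were 9.89, 10.50 and 10.96. Only the top of the lower set reached the bottom of the higher one. The difference was -0.72 ± 0.08 (log2 ± SE), a 1.64-fold lower signal (limma adjusted p = 3.02e-05), and 8 of 8 pairs of arrays were lower. For number 1.1 Psmb9 averaged 11.38 ± 0.18 and for number 1.2 it averaged 10.99 ± 0.05 (SD over 4 arrays). For numbers 2.1 and 2.2 the averages were 10.75 ± 0.15 and 10.18 ± 0.21.

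Psmb8, which replaces Psmb5, had values of 9.09, 9.31 and 9.70 in mouse number 1 and of 8.48, 8.81 and 9.22 in mouse number 2 (lowest, median, highest). The ranges overlapped between 9.09 and 9.22. It was 1.45-fold lower in mouse number 2, by -0.53 ± 0.07 (limma adjusted p = 0.000112, 8 of 8 pairs). Psmb10, which replaces Psmb7, has 2 probes here. ILMN_2757870 had values of 12.76, 12.98 and 13.33 against 12.43, 12.59 and 12.88, and differed by -0.36 ± 0.07 (limma adjusted p = 0.00179). ILMN_2914843 differed by -0.31 ± 0.06 (limma adjusted p = 0.00176), and both probes were lower in 8 of 8 pairs.

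The PA28 subunits went the same way. Psme2 had values of 10.13, 10.19 and 10.47 in mouse number 1 and 9.74, 9.89 and 9.99 in mouse number 2. The 2 sets of 8 arrays did not overlap. Psme2 was 1.32-fold lower, by -0.40 ± 0.06 (limma adjusted p = 0.000175, 8 of 8 pairs). Psme1 has 2 probes that differ in their call. ILMN_2671204 had values of 12.62, 12.73 and 12.95 against 12.14, 12.38 and 12.61, without overlap, and was lower by -0.36 ± 0.07 (limma adjusted p = 0.00231). ILMN_2986309 had values of 12.68, 12.96 and 13.23 against 12.58, 12.77 and 12.88, and its difference of -0.18 ± 0.07 did not pass (limma adjusted p = 0.0662, lower in 7 of 8 pairs). Of all probes, 2.50% were lower without overlap, against 2 of the 7 probes of the immunoproteasome and 0 of the other 48 members.

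**Figure D1:**
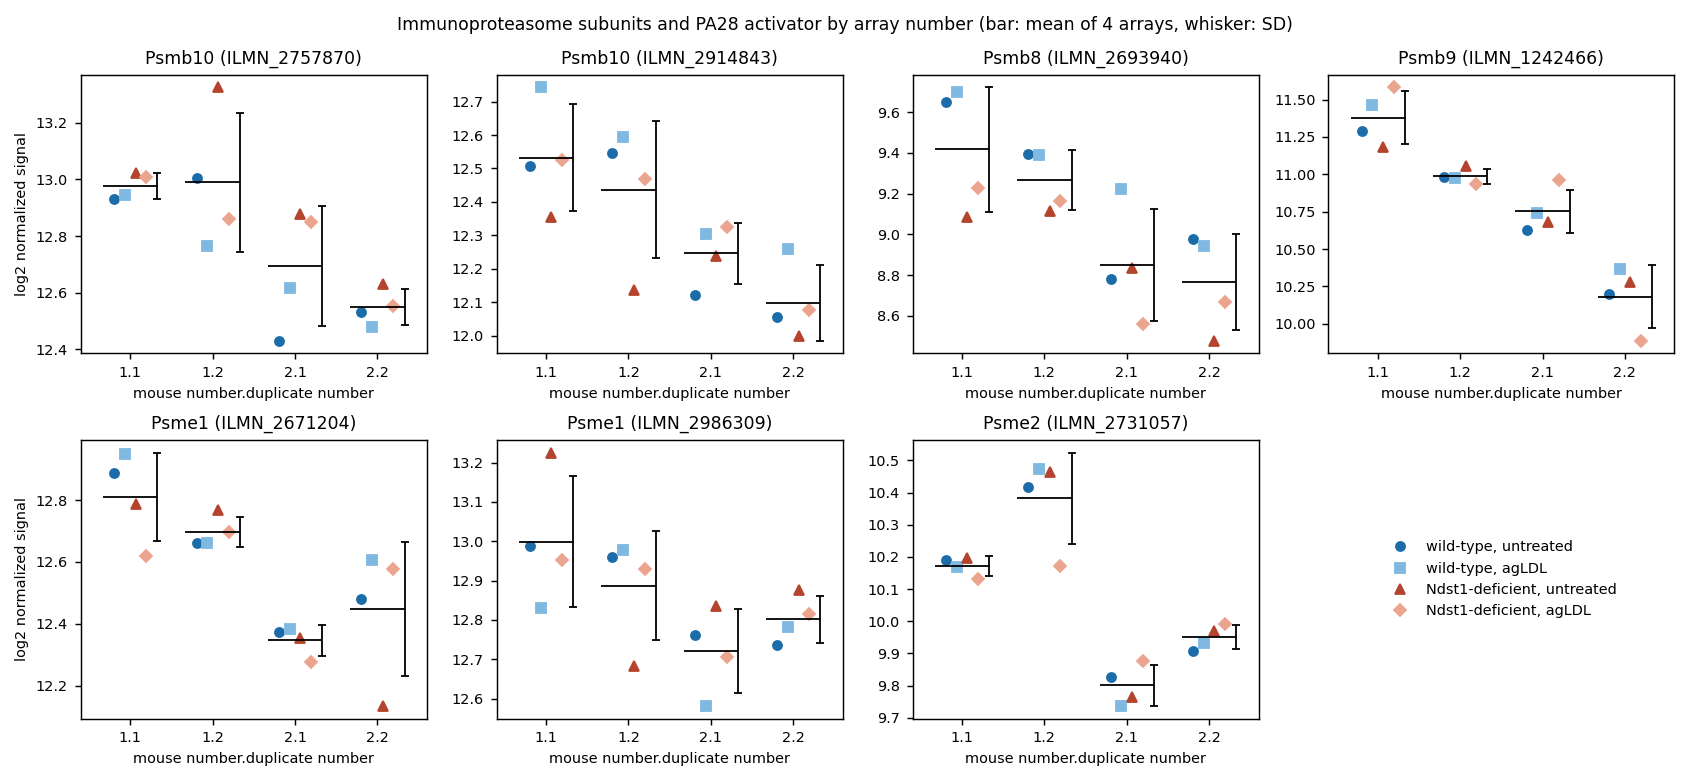
Log2 normalized signal of the immunoproteasome and PA28 probes (vertical axis) on each of the 16 arrays, by mouse and duplicate number (horizontal axis). Symbols show the 4 groups, the bar is the mean of 4 arrays and the whisker its SD. Psmb9 lies at 10.94 or above in mouse number 1 and at 10.96 or below in mouse number 2.

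The 8 arrays of a side come from 2 animals, so the values of the 4 animals are given as well. Psmb9 averaged 11.18 and 10.48 in mice 1 and 2 of the wild-type label and 11.19 and 10.45 in mice 1 and 2 of the Ndst1-deficient label. Psmb8 averaged 9.54 and 8.98 against 9.15 and 8.63, and Psme2 averaged 10.31 and 9.85 against 10.24 and 9.90. In both labels the animal numbered 2 was the lower. Its arrays held the same positions on both slides, so the labels cannot be read as independent repeats of a difference between animals. With the duplicate arrays averaged, the same 6 probes remained called, with limma adjusted p between 0.000725 for Psmb9 and 0.0275 for a Psmb10 probe, while 10.7% of all probes were called lower. This fit still counts the untreated and agLDL values of an animal as separate, so its p-values do not measure the spread between animals. Within a label each mouse number is 1 animal, so p-values there measure the spread among arrays of an animal and not among mice. In the 8 arrays labelled wild-type alone, limma called 6 of the 7 probes lower (6.74% of all probes), and in the 8 labelled Ndst1-deficient alone it called 2 (4.58% of all probes). Those 2 were Psmb9, at -0.74 (limma adjusted p = 0.0301), and Psmb8, at -0.52 (limma adjusted p = 0.0368). Psme2 differed there by -0.34 and Psmb10 by -0.33, which did not pass (limma adjusted p = 0.0955 and 0.123).

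Genes that act next to the immunoproteasome moved with the mouse number too. Of 10 measured genes of MHC class I presentation, 6 were called lower in mouse number 2 and 0 higher, with a median of -0.51. The peptide transporters Tap1 and Tap2 fell by 0.78 and 0.53 (limma adjusted p = 1.90e-05 and 9.87e-05), and the class I heavy chain H2-K1 fell by 1.02 (4.21e-06). The light chain B2m differed by -0.03 (limma adjusted p = 0.706). Of 12 interferon-responsive genes, 10 were called lower and 0 higher, with a median of -0.91. Among them the ubiquitin-like Isg15 fell by 1.68 and the transcription factor Irf7 by 1.28, while Irf1, which is known to drive Psmb9, differed by -0.18 (limma adjusted p = 0.0661). The summed signal of the interferon-responsive list ran from 84100 to 96942 in mouse number 1 and from 43886 to 62839 in mouse number 2.

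Markers of other cells were set beside these differences. Of 9 stromal and endothelial markers with a probe, 3 were measured, and all 3 were lower in mouse number 2: Sparc by -2.20, Acta2 by -1.66 and Col1a1 by -1.07. Their list summed to between 2265 and 3139 in mouse number 1 and between 790 and 1099 in mouse number 2. Of 7 neutrophil markers 2 were higher and 0 lower, and their sum ran from 14714 to 19975 in mouse number 1 and from 18614 to 25847 in mouse number 2. Of 5 macrophage markers 2 were higher and 1 lower, with sums of 52872 to 60621 and of 53855 to 61589. The part of other cells in the lower immunoproteasome signal was not tested.

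The catalytic subunits that the immunoproteasome replaces did not pass on their brightest probes. Psmb5, the chymotrypsin-like subunit, had values of 7.80, 8.83 and 9.59 in mouse number 1 and of 8.10, 8.66 and 9.49 in mouse number 2. The ranges lay over each other. The difference was 0.01 ± 0.14 (limma adjusted p = 0.982), with a sign that turned under 3 alternatives. Psmb6, the caspase-like subunit, differed by -0.06 ± 0.07 (limma adjusted p = 0.602). The brightest probe of Psmb7, the trypsin-like subunit, differed by -0.09 ± 0.06 (limma adjusted p = 0.303). A further Psmb7 probe, ILMN_2836147, was called lower at -0.16 (limma adjusted p = 0.0451), and the third differed by -0.05.

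Other members fell by class as follows, and 14.6% of all probes were called lower. In the alpha ring 0 of 6 probes were called, with a median of -0.08, and Psma2 had the narrowest range of all members, 0.25 over the 16 arrays. In the constitutive beta ring 2 of 10 probes were called lower, Psmb3 at -0.26 (limma adjusted p = 0.0112) and the Psmb7 probe above, with a median of -0.10. Of the 19S ATPases 2 of 6 probes were lower, with a median of -0.17. Psmc5 had values of 10.97, 11.11 and 11.82 in mouse number 1 and of 10.42, 10.78 and 11.03 in mouse number 2 on ILMN_1220632. It was lower in 8 of 8 pairs, by -0.48 ± 0.08 (limma adjusted p = 0.000652), while its other probe differed by -0.20 (0.0940). Psmc4 was lower by -0.23 (limma adjusted p = 0.00651).

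Of the 19S non-ATPases 4 of 16 probes were lower, against 14.6% of all probes, with a median of -0.15. This class was set by the Psmd symbol, so it also holds assembly chaperones such as Psmd10. Psmd11, a scaffold subunit of the lid, had values of 6.14, 6.88 and 7.999 in mouse number 1 and of 5.67, 6.58 and 6.89 in mouse number 2. It was lower in 8 of 8 pairs, by -0.53 ± 0.12 (limma adjusted p = 0.00376), at a dim signal that was detected on 15 arrays. Psmd12, another lid subunit, was lower by -0.29 (limma adjusted p = 0.0112). The ubiquitin receptor Psmd4 was lower by -0.15 (0.0418). For Psmd10, an assembly chaperone of the 19S base, the probe ILMN_1239384 was lower by -0.16 (0.0282), whereas ILMN_3003308 differed by 0.03 (0.796) and ILMN_2694080 by -0.18 (0.335). Of the 4 probes of the core assembly chaperones 2 were lower, Psmg1 and Psmg2, both at -0.24 (limma adjusted p = 0.0379 and 0.0329). Calls between mouse numbers that ended on leaving out single arrays were those of Psmd4 and the Psmb7 probe (14 of the 16 arrays each), Psmg1 (11), Psmg2 (9) and Psmd10 (7). The nuclear activators Psme3, at -0.13, and Psme4, within 0.01 of 0, did not pass.

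In all, 16 of the 55 members were called lower and 0 higher, against 30.9% of all probes called in either direction. Below 0 were 51 of the 55 differences. With the duplicates averaged, 10 members were called, the 6 probes above with Psmc5, Psmd11, Psmd12 and Psmc4, against 22.3% of all probes. Outside the immunoproteasome 4 members were thus called in that fit, not 10, and 0 in the arrays labelled Ndst1-deficient alone.

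**Figure D2:**
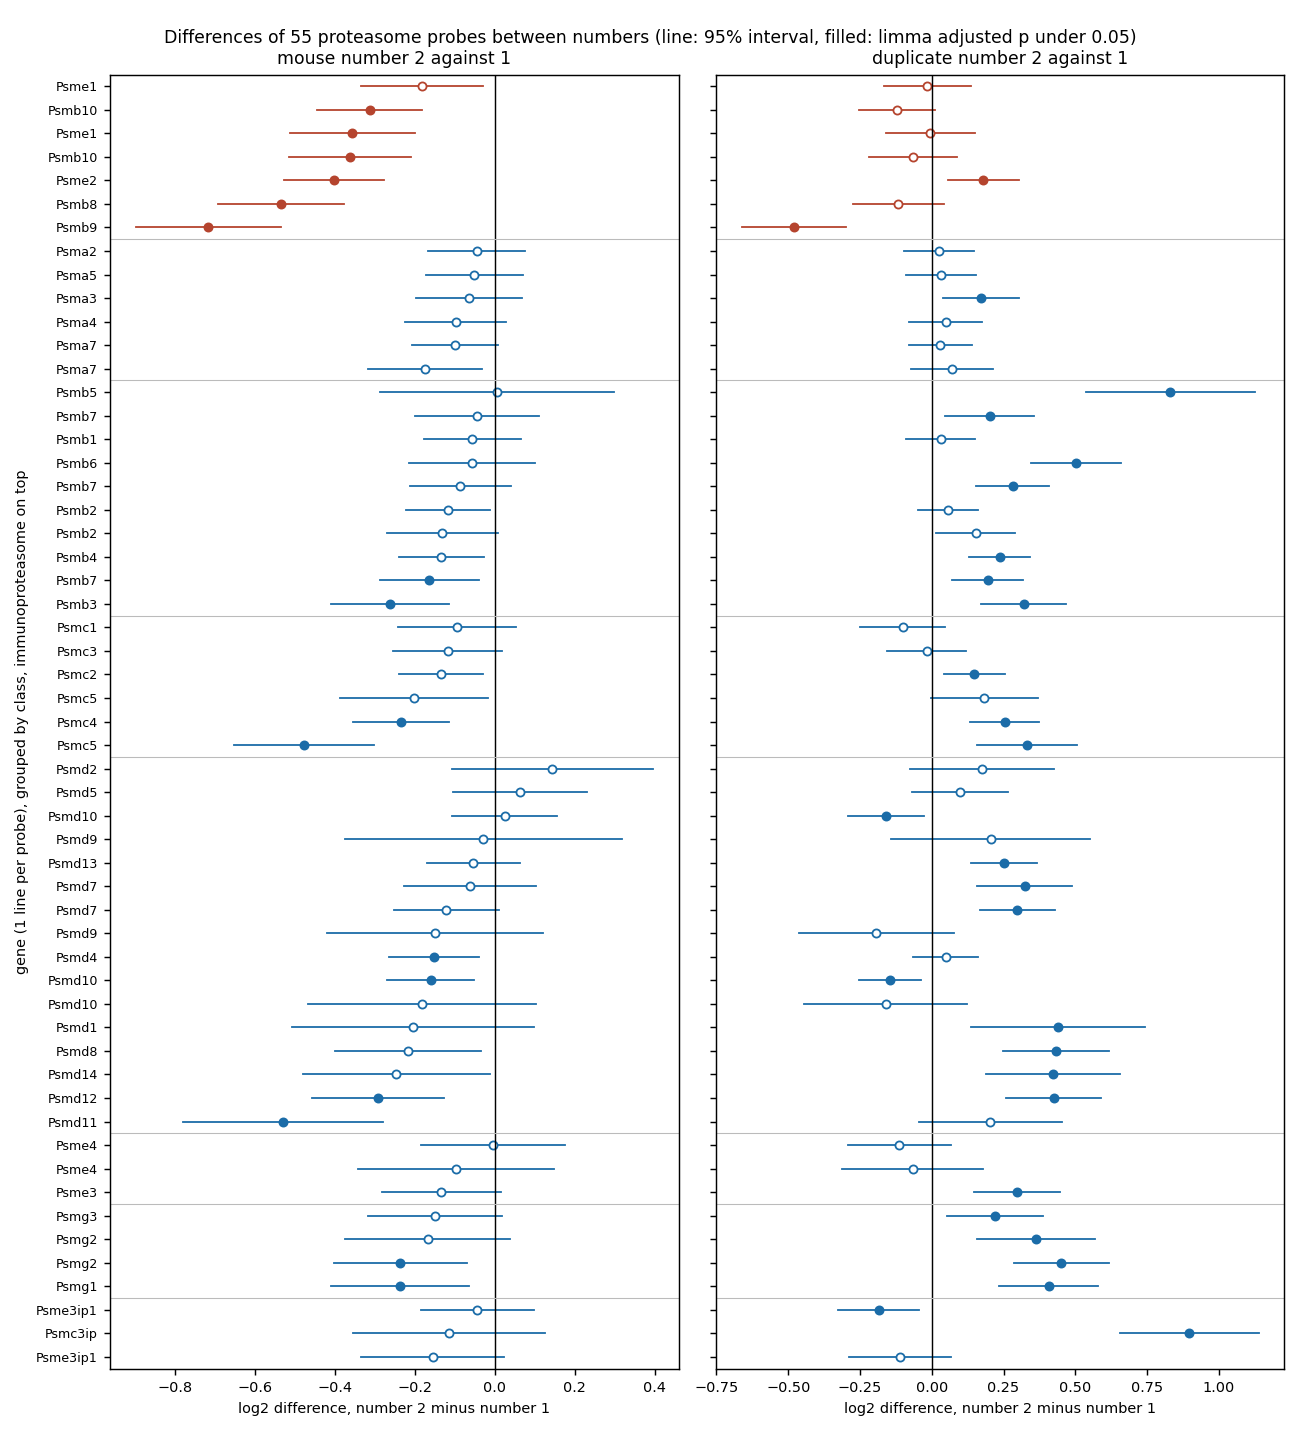
Log2 difference of each of the 55 member probes (rows) between mouse numbers and between duplicate numbers, with its 95% interval on the horizontal axis. Filled points passed limma's adjusted p of 0.05, and immunoproteasome and PA28 probes are red at the top. Between mouse numbers 6 of the 7 red probes are filled and below 0.

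Between the duplicate arrays of a mouse and treatment the pattern was another one. Of the 48 members outside the immunoproteasome, 24 were called higher on duplicate 2 than on duplicate 1 and 3 lower, with a median of 0.19 (log2). Of the 7 probes of the immunoproteasome, 1 was higher and 1 lower, with a median of -0.07. Over all 10224 probes limma called 46.0%, with 22.4% higher and 23.7% lower and a median of -0.01. Over all 55 members the median was 0.17, and it was 0.099 without background correction and 0.097 with scaling to the 75th percentile in place of quantile normalization. Under that scaling 19 members were called higher, not 25, and the median of the immunoproteasome was -0.12 and that of all probes -0.04. The core assembly chaperones, the constitutive beta ring and the 19S cap held most of the calls. Duplicate 1 lay at positions A, C, E and G and duplicate 2 at B, D, F and H, so duplicate number and position cannot be told apart.

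Psmb5 had values of 7.80, 8.44 and 8.83 on the 8 arrays of duplicate 1 and of 8.73, 9.22 and 9.59 on the 8 of duplicate 2. The sets overlapped between 8.73 and 8.83 only. Psmb5 was 1.78-fold higher, by 0.83 ± 0.14 (limma adjusted p = 0.000255, 8 of 8 pairs). Psmb6 had values of 11.96, 12.29 and 12.36 against 12.43, 12.76 and 12.86, with no overlap. It was 1.42-fold higher, by 0.50 ± 0.07 (limma adjusted p = 9.39e-05). Psmb6 and the lid subunit Psmd13 were the 2 members that were higher without overlap, as were 5.64% of all probes.

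Psmb9 went the other way. Its values were 10.63, 11.07 and 11.58 on duplicate 1 and 9.89, 10.65 and 11.06 on duplicate 2. The sets overlapped, but within each pair the duplicate 2 array was lower, 8 of 8 times. It was 1.40-fold lower, by -0.48 ± 0.08 (limma adjusted p = 0.000408). Psme2 was higher by 0.18 ± 0.06 (limma adjusted p = 0.0213, 8 of 8 pairs), a call that was lost on leaving out either of 2 single arrays (highest limma adjusted p = 0.0521). Psmb8 differed by -0.12, Psmb10 by -0.07 and Psme1 by -0.02, none of which passed (limma adjusted p = 0.213, 0.473 and 0.879).

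**Figure D3:**
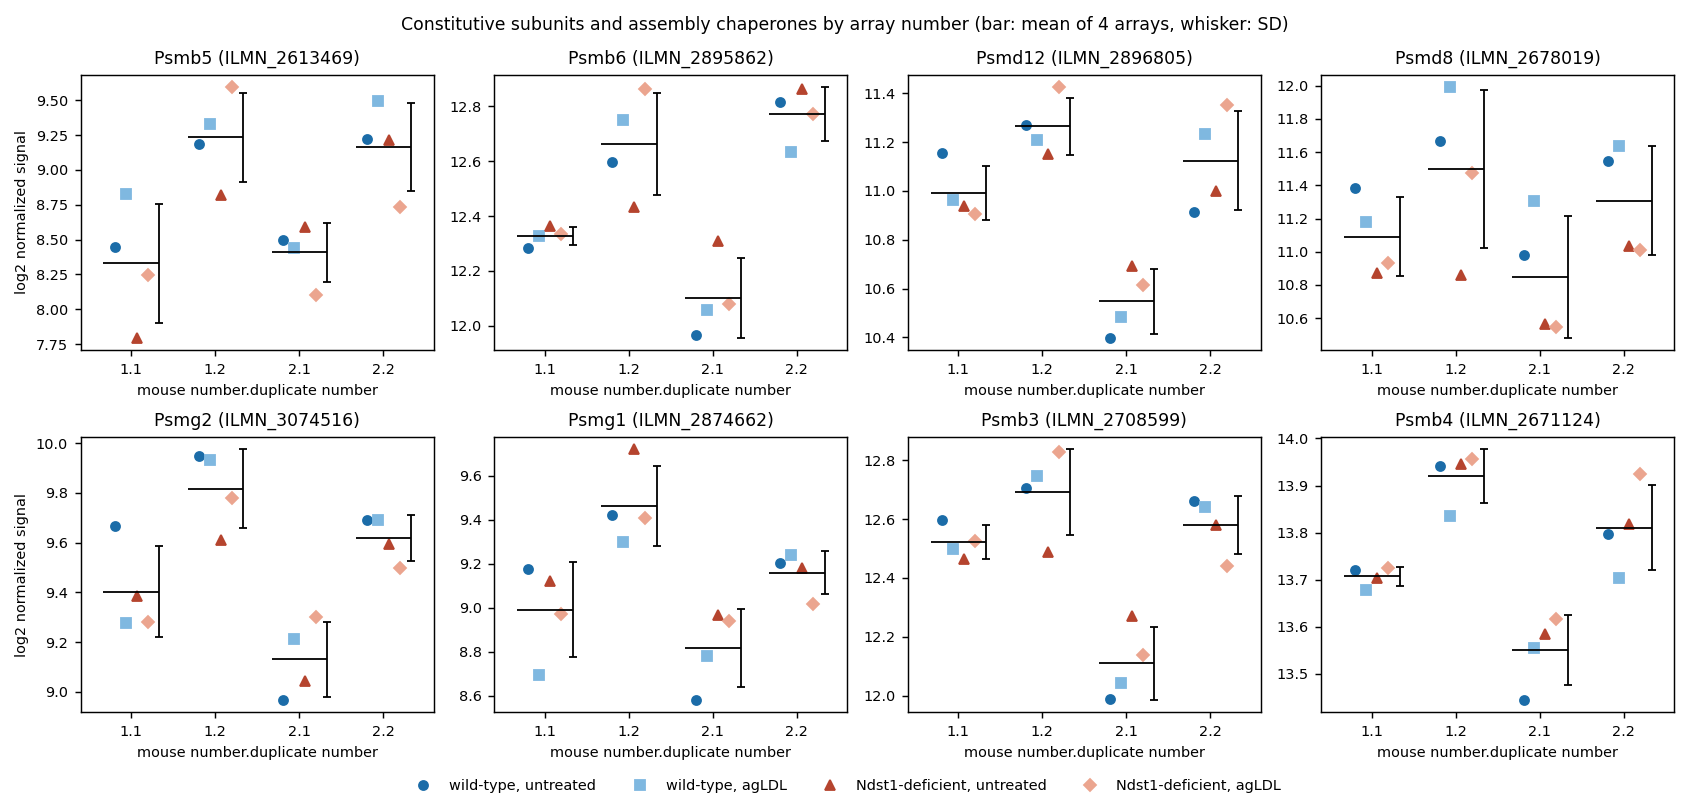
Log2 normalized signal of standard proteasome probes (vertical axis) on each of the 16 arrays, by mouse and duplicate number (horizontal axis). Symbols show the 4 groups, the bar is the mean of 4 arrays and the whisker its SD. Psmb6 lies at 12.36 or below on all duplicate 1 arrays and at 12.43 or above on all duplicate 2 arrays.

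By role, all 4 probes of the core assembly chaperones were higher on duplicate 2, with a median of 0.38. Of all probes, 22.4% were called higher. Psmg2 rose by 0.45 (limma adjusted p = 0.000348), Psmg1 by 0.41 (0.00100) and Psmg3 by 0.22 (0.0328). Of the 10 probes of the constitutive beta ring 7 were higher and 0 lower, with a median of 0.22. Besides Psmb5 and Psmb6 these were Psmb3 at 0.32 (limma adjusted p = 0.00185), Psmb4 at 0.24 (0.00154) and the 3 Psmb7 probes at 0.19 to 0.28. In the alpha ring 1 of 6 probes was higher, Psma3 at 0.17 (limma adjusted p = 0.0360), with a median of 0.04. Leaving out single arrays ended the call of Psma3 for 11, of the Psmb7 probe ILMN_1233153 for 11 and of Psmg3 for 9 of the 16 arrays.

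In the 19S cap 3 of 6 ATPase probes were higher, with a median of 0.17, while 22.4% of all probes were higher and 23.7% lower. They were Psmc5 at 0.33 (limma adjusted p = 0.00454), Psmc4 at 0.25 (0.00223) and Psmc2 at 0.15 (0.0241). Of the 16 non-ATPase probes, which include those of the assembly chaperone Psmd10, 7 were higher and 2 lower, with a median of 0.20. Psmd12 had values of 10.40, 10.80 and 11.15 on duplicate 1 and of 10.91, 11.22 and 11.43 on duplicate 2, and rose by 0.42 ± 0.08 in 8 of 8 pairs (limma adjusted p = 0.000528). Psmd14, the deubiquitinase of the lid, rose by 0.42 (limma adjusted p = 0.00607), the lid subunit Psmd8 by 0.43 (0.000995) and the base scaffold Psmd1 by 0.44 (0.0208). The lid subunits Psmd13, at 0.25 (0.00177), and Psmd7, on both probes at 0.30 and 0.32, were higher as well. The 2 lower probes both belong to Psmd10, at -0.16 (limma adjusted p = 0.0466) and -0.14 (0.0311), and ILMN_2694080 differed by -0.16 (0.344). These 2 calls were lost on leaving out any of 13 and 9 of the 16 arrays (highest limma adjusted p = 0.107 and 0.0771). The calls of Psmc2 and Psmd1 were lost for 5 and 2 arrays.

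Outside the core and cap, Psme3 rose by 0.30 (limma adjusted p = 0.00342), and Psme4 differed by -0.11 (0.292). Of the probes that belong by symbol only, Psmc3ip rose by 0.90 (limma adjusted p = 2.55e-05) and Psme3ip1 on ILMN_2688834 fell by 0.18 (0.0334), a call lost for 8 of the 16 arrays left out. Among proteasome genes without a Psm name 2 of 6 measured were higher on duplicate 2, the deubiquitinase Uchl5 at 0.53 (limma adjusted p = 0.000349) and the lid subunit Sem1 at 0.30 (0.00545). The maturation factor Pomp, at -0.02, and Nfe2l1, at 0.07, did not pass. Between mouse numbers 1 of these 6 was higher, the unfoldase Vcp at 0.15 (limma adjusted p = 0.0372), and Nfe2l1 differed by -0.01 (0.941). The ubiquitin-activation list had 1 gene with a probe, Uba6, which was detected on 0 arrays.

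Other lists were set beside the duplicate difference, where 46.0% of all probes were called. All 4 measured targets of NRF2, the factor that binds the antioxidant response element, were higher on duplicate 2, with a median of 0.50, and their sum ran from 5648 to 7155 on duplicate 1 and from 7801 to 10474 on duplicate 2. Between mouse numbers 3 of the 4 were higher in number 2, with a median of 0.32. Of the 12 interferon-responsive genes 8 were lower on duplicate 2 and 0 higher, with a median of -0.21, led by Gbp2 at -0.77 and Irf1 at -0.50 (limma adjusted p = 7.09e-07 and 5.75e-05). Of the 10 genes of class I presentation 4 were lower, among them Tap1 at -0.43 (limma adjusted p = 0.00129), and 2 higher, the chaperones Calr at 0.82 and Pdia3 at 0.20. Macrophage markers were higher in 0 and lower in 2 of 5, neutrophil markers higher in 2 and lower in 1 of 7, stromal markers 0 of 3 called, and of the B cell markers Cd79b, the only 1 of 4 measured, was lower by -0.81. The part of these lists in the members' differences was not tested.

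The duplicate difference was also fitted within each mouse number. Within mouse number 1, 11 members were called higher and 2 lower, against 12.5% and 13.6% of all probes (26.1% in all). Within mouse number 2, 17 were higher and 1 lower, against 17.1% of all probes in each direction (34.2% in all). Psmb5 rose by 0.90 in mouse number 1 and 0.76 in mouse number 2 (limma adjusted p = 0.00396 and 0.00832). Psmb6 rose by 0.34 and 0.67 (0.0286 and 0.000265), and Psmb9 fell by 0.39 and 0.57 (0.0269 and 0.00234). The interaction of mouse number and duplicate number was called for 0 of 55 members and for 0.0782% of all probes by limma. Among the members the largest was that of Psmc3ip, whose rise was 0.77 larger in mouse number 2 without passing (limma adjusted p = 0.347).

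The share of each probe's variance over the 16 arrays describes the same split. For the 7 probes of the immunoproteasome the mouse number took a median of 58.8% and the duplicate number 2.78%. For the other 48 members these medians were 11.3% and 26.4%, and for all probes 10.2% and 20.4%. The 4-level number together took 63.0% for the immunoproteasome, 47.8% for the other members and 49.7% for all probes, and it took 91.0% for Psmb9 and 90.7% for Psme2. The 4 labelled groups took 7.22%, 17.2% and 12.2%.

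Between the genotype labels, no member passed. With the duplicate arrays averaged, limma called 0 of 55 members in untreated and 0 in agLDL-treated cells, as it called 0% of all 10224 probes in each. At an unadjusted p under 0.05 there were 6 and 3 members and 512 and 272 of all probes. The median member difference, Ndst1-deficient minus wild-type label, was 0.06 and 0.04 (log2), against 0.01 and 0.00 over all probes. The members ran from -1.02 to 0.69 without and from -0.63 to 0.51 with agLDL.

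The lowest of these differences belonged to Psmd11. Untreated arrays 1.1, 1.2, 2.1 and 2.2 labelled wild-type read 7.39, 7.34, 6.89 and 6.57, and those labelled Ndst1-deficient read 6.14, 6.36, 5.67 and 5.94. The 2 groups did not overlap, and in the second group Psmd11 was detected on 3 of 4 arrays. The means were 7.05 ± 0.45 and 6.03 ± 0.32 (SD, 2 mice), and the difference was -1.02 with a 95% interval of -1.77 to -0.26 (limma adjusted p = 0.900). With the number as a replicate block on the 16 arrays it passed (limma adjusted p = 0.0290, interval -1.37 to -0.67), where 0.264% of all probes passed. That fit counts the duplicate arrays of a mouse as separate and joins different animals by their number. Its p-value and interval thus do not measure the spread between mice. With the mouse number as a block on the averaged values Psmd11 did not pass (limma adjusted p = 0.139). Without background correction the difference was -0.44, and 2 further Psmd11 probes were detected on no array.

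With agLDL Psmd11 read 7.09, 7.999, 6.67 and 6.88 on arrays labelled wild-type and 6.68, 6.65, 6.19 and 6.60 on those labelled Ndst1-deficient. These groups overlapped slightly, and array 1.2 of the wild-type label stood highest. The difference was -0.63 (limma adjusted p = 1.00), and with the replicate block it did not pass either (0.270). Without array 1.2 of the wild-type label it was -0.40.

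Psmd14 and Psmd8 also differed in the same direction in both treatments without passing. Psmd14 read 7.51, 7.75, 7.30 and 7.86 in untreated arrays labelled wild-type and 8.21, 8.64, 8.21 and 8.14 in those labelled Ndst1-deficient. The groups did not overlap, and the difference was 0.69 (95% interval 0.21 to 1.18, limma adjusted p = 0.850). With agLDL it was 0.51. Psmd8 read 11.38, 11.66, 10.98 and 11.55 against 10.87, 10.86, 10.56 and 11.03, with overlap, and differed by -0.56 (95% interval -0.97 to -0.15, limma adjusted p = 0.864). With agLDL it differed by -0.54. The other 3 members with an unadjusted p under 0.05 in untreated cells were Psmd10 at -0.37 (ILMN_2694080), Psmb7 at -0.31 (ILMN_1221340) and Psme4 at -0.31 (ILMN_2947187). Further probes of these genes differed by 0.19 and 0.11 for Psmd10, by -0.06 and 0.05 for Psmb7 and by 0.09 for Psme4.

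Of the immunoproteasome, Psmb8 had the largest difference between the labels. Untreated it read 9.65, 9.40, 8.78 and 8.98 on arrays labelled wild-type and 9.09, 9.12, 8.83 and 8.48 on those labelled Ndst1-deficient. The groups overlapped, and within each group the mouse number 2 arrays were the lower ones. The difference was -0.32 with a 95% interval of -1.05 to 0.41 (limma adjusted p = 1.00). With agLDL it was -0.41, with an interval of -1.14 to 0.32. Psmb9 differed by 0.03 and -0.04 and Psme2 by 0.01 and -0.03 without and with agLDL. The Psmb10 probes went opposite ways, ILMN_2757870 by 0.24 and 0.12 and ILMN_2914843 by -0.13 and -0.13. So did those of Psme1, ILMN_2986309 by 0.04 and 0.06 and ILMN_2671204 by -0.09 and -0.11.

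**Figure D4:**
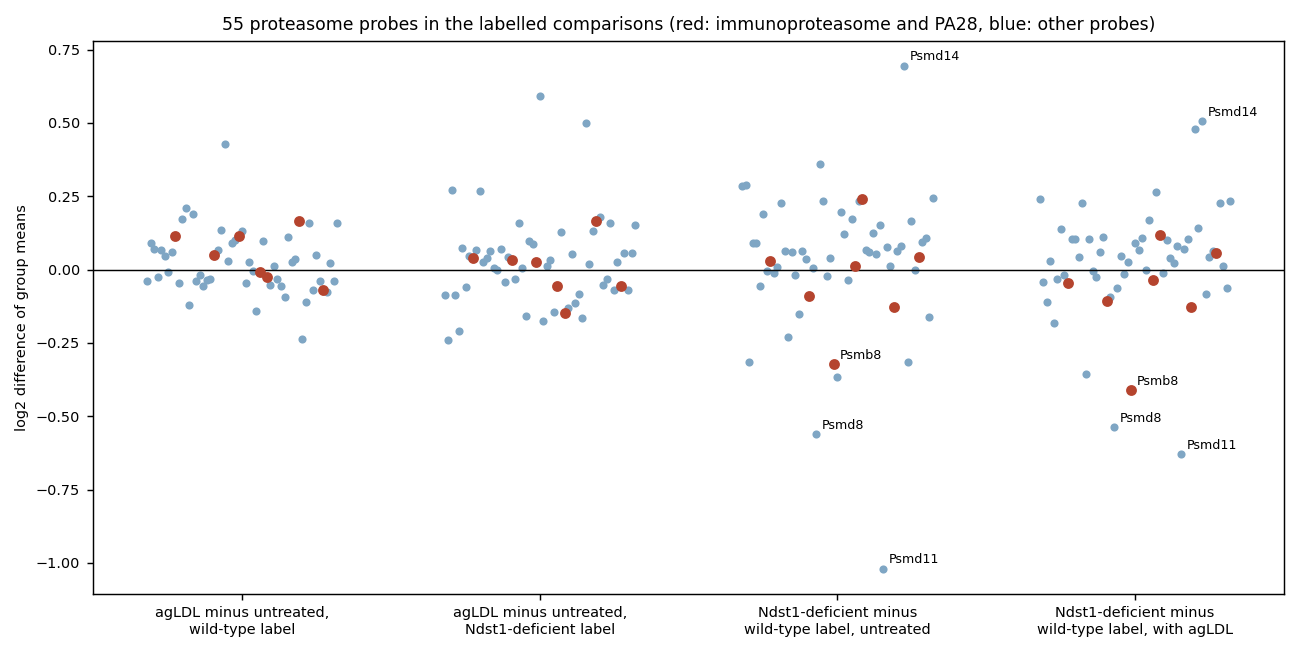
Log2 difference of each of the 55 member probes (vertical axis) in the 4 labelled comparisons (horizontal axis). Red points are immunoproteasome and PA28 probes. None passed limma's adjusted p of 0.05, and the lowest point, at -1.02, is Psmd11 between the genotype labels in untreated cells.

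Treatment with agLDL, compared with none, gave no call among the members under either label. Limma called 0 of 55 under the wild-type label and 0 under the Ndst1-deficient label, and 0% of all probes in each. At an unadjusted p under 0.05 there was 1 member in each, against 78 and 314 of all probes. The medians of the members were 0.02 and 0.03, and of all probes -0.01 and -0.01. On their brightest probes, differences of the 5 genes of the immunoproteasome ran from -0.07 (Psme1) to 0.11 (Psmb8) under the wild-type label and from -0.15 (Psmb10) to 0.04 (Psmb9) under the Ndst1-deficient label. The other probe of Psmb10 differed by 0.17 under both labels, and that of Psme1 by 0.05 and 0.03. For Psmb9 under the wild-type label the 95% interval was -0.83 to 1.06, and a change of the size seen between mouse numbers lies inside it. Cells of each mouse were kept with and without agLDL, but this fit had no term for the mouse. The difference between the mice thus widens the interval and makes calls harder to reach, for members and for all probes. On arrays 1.1, 1.2, 2.1 and 2.2 Psmb9 read 11.29, 10.98, 10.63 and 10.20 untreated. With agLDL it read 11.46, 10.98, 10.74 and 10.37.

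Of all members, the 19S scaffold Psmd2 had the largest difference with agLDL under the wild-type label. It read 5.52, 6.09, 5.98 and 5.84 untreated and 6.57, 6.15, 6.003 and 6.42 with agLDL, near the detection limit. The groups overlapped, and 2 of the 4 untreated arrays detected it. The difference was 0.43 (95% interval 0.01 to 0.84, limma adjusted p = 1.00), and under the Ndst1-deficient label it was 0.01. Under the Ndst1-deficient label the largest difference of a member was that of the Psmd10 probe ILMN_2694080. It read 9.21, 8.14, 8.24 and 9.02 untreated and 9.43, 9.26, 9.22 and 9.05 with agLDL, where untreated arrays 1.2 and 2.1 stood low. The difference was 0.59 (95% interval 0.23 to 0.95, limma adjusted p = 1.00), while the other Psmd10 probes differed by -0.06 and -0.07. Psmd11 differed by 0.50 and the 3 Psmb7 probes by 0.27, 0.07 and -0.08, and none passed (limma adjusted p = 1.00 for each). Psmb5 differed by 0.19 and 0.06 and Psmb6 by 0.03 and 0.02 under the wild-type and Ndst1-deficient labels.

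The interaction of genotype label and agLDL, which asks whether the treatment difference depended on the label, was called by limma for 0 of 55 members and 0% of all probes. At an unadjusted p under 0.05 there were 0 members and 115 of all probes. The members ran from -0.42 (Psmd2) to 0.46 (Psmd10, ILMN_2694080), with a median of -0.01. The 7 probes of the immunoproteasome ran from -0.12 (Psmb10) to 0.01 (Psme1).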

How the data were processed

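RNA was measured on single-colour Illumina arrays. The deposited table holds, per the file headers, a mean bead intensity and a detection p-value for each probe and array, and the intensities had not been normalized between arrays (medians 148 to 161). The submitters' processing notes name GenomeStudio (version not given in the sources used here). Series-matrix values of the authors, linear intensities with medians of 11.2 to 11.3 and a lowest value of -23.3, were an alternative source after adding 40 and taking log2. Rank correlations of these columns were 1 with the array they belong to and 0.917 or less with the rest, and their exact normalization is unknown.

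Signals were corrected and quantile-normalized on the log2 scale with neqc (offset 16) in limma 3.58.1, with statmod 1.5.0 and R 4.3.3. Probes with a detection p under 0.01 on at least 4 arrays were tested, with Benjamini-Hochberg adjustment over all of them at 0.05. Labelled groups were compared on the 2 arrays of a mouse and treatment averaged, with no term for the mouse (4 residual degrees of freedom). Mouse and duplicate numbers were compared on 16 arrays with group and number as terms (9 residual degrees of freedom). The script was tested on simulated data. The numbers come from the labels, and they pair the arrays: all 24 same-number pairs had correlated deviations from the group means (0.445 to 0.814), and all 16 arrays matched best with their own number. The members, lists and tests were chosen with earlier results of these data known. Genes named are the immunoproteasome, its counterparts, the chaperones and, in each comparison, the 5 smallest p-values a side, and other called members were named after their values were seen. The brightest probe detected on most arrays stands for a member gene unless a probe is named, and not every further probe is given. Levels of different probes are not compared. The number of arrays limits the precision. Promoters come from RefSeq tables. Lists describe class I presentation, interferon response, NRF2, ubiquitin, other proteasome genes and markers of 6 cell types.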

Additional observations from a re-analysis of the deposited data

Results flagged for a closer look

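In each group of 4 arrays, the highest or lowest array of each named member was compared with the other 3 by Dixon's ratio of gap to range, at its 95% critical value. Of 176 such groups 10 had an array that stood apart, and chance alone gives about 1 in 20. The affected values are log2 normalized signals, and no explanation was tested.

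Array 2.1 of the untreated wild-type label stood apart for 3 members: it was the lowest for the beta subunit Psmb3 (11.99) and the chaperone Psmg3 (9.26), and the highest for the activator Psme4 (11.60). Array 1.1 of the same group was the highest for the ATPase Psmc1 (10.91). Array 1.2 of the agLDL-treated wild-type label was the highest for the scaffold Psmd1 (7.12) and the ubiquitin receptor Psmd4 (13.31).

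Under the Ndst1-deficient label, untreated array 2.1 was the lowest for the ATPase Psmc4 (11.96) and untreated array 1.2 the highest for the deubiquitinase Psmd14 (8.64). With agLDL, array 2.1 was the lowest for Psmd11 (6.19) and array 1.2 the highest for the chaperone Psmg1 (9.41). No gene of the immunoproteasome or PA28 was among them. Paired differences between arrays were also compared: those with agLDL and between mouse numbers across the 2 labels, and those between duplicates across the mouse numbers. In 0 of 132 such comparisons did every difference of one side go one way and every difference of the other side the opposite way.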

How the results depend on the processing

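Over all settings other than leaving out arrays, called members kept their call in 283 cases, lost it in 82 and reversed in 0. Members not called stayed so in 588 cases, gained a call in 2 (Psme1 between mouse numbers without background correction, limma adjusted p = 0.0313, and Psmd11 below) and changed sign in 11. The replicate block on 16 arrays counts the duplicate arrays of a mouse as separate. With it, 1 member, Psmd11, was called between the labels in untreated cells (limma adjusted p = 0.0290) where 0 were called without it, and the block changed no other member's call. Between mouse numbers the members called were 16, and 8 in arrays of the wild-type label only, 2 in those of the Ndst1-deficient label only and 10 with duplicates averaged (11 to 18 on leaving out single arrays). The immunoproteasome probes lower were 6, and 2 in the Ndst1-deficient label only (6 to 7 on leaving out single arrays). Other members lower were 10, and 6 without a filter on dim probes, 2 and 0 in the wild-type and Ndst1-deficient labels only, and 4 with duplicates averaged; leaving out single arrays gave 5 to 11, with 6 or fewer without untreated wild-type 1.1, 1.2, 2.1 or 2.2, untreated Ndst1-deficient 1.1 or 2.2 or agLDL-treated Ndst1-deficient 2.2. Between duplicates the members called were 29, and 14 and 8 in the wild-type and Ndst1-deficient labels only (22 to 28 on leaving out single arrays), the others higher were 24, and 13 and 7 (20 to 25), and the lower members were 4, and 2 without the filter, 2 with 1 probe per gene, and 1 in either label only. Leaving out single arrays gave 1 to 3 lower members, with 1 without agLDL-treated wild-type 1.1, untreated Ndst1-deficient 2.2 or agLDL-treated Ndst1-deficient 2.2. Subsets of a label hold fewer arrays and only 1 animal per mouse number, and the cause of the other changes was not tested. The share of all probes called is not given here for most of these settings. A loss of calls among the members thus cannot be told from a general loss of calls. Signs changed only where no call was made. Between mouse numbers Psmb5 became -5.5e-05 with series-matrix values, -0.0026 without background correction and -0.034 in the wild-type label only, Psmb6 became 0.0071 in the Ndst1-deficient label only, and Psme4, Psmd2 and Psmd5 became 0.10, -0.021 and -0.071 in the wild-type label only. In that label only, Psme1 between duplicates became 0.073, and the interactions of Psme3ip1, Psmb10 and Psmg1 became -0.063, 0.033 and 0.11. Leaving out single arrays also turned signs. For agLDL in the wild-type label Psma3 ran from -0.0053 to 0.20, Psmb5 from -0.075 to 0.45, Psmc3ip from -0.41 to 0.26 and Psmd9 from -0.32 to 0.077, and in the Ndst1-deficient label Psme3 ran from -0.30 to 0.012. Between labels with agLDL Psmc3ip ran from -0.15 to 0.60 and Psmb7 from -0.24 to 0.021, and the interactions of Psmc3ip, Psmd14 and Psmg3 from -0.25 to 0.51, -0.42 to 0.043 and -0.26 to 0.0044. Between mouse numbers Psmb5 ran from -0.074 to 0.11, Psme4 from -0.045 to 0.043 and Psmd10 from -0.011 to 0.053, and Psme1 between duplicates from -0.049 to 0.042. Calls near the threshold were lost on leaving out single arrays for up to 14 of the 16 arrays (Psmd4, highest limma adjusted p = 0.0907). Dim members such as Psmd11, Psmd2 and Psmd9 are limited by their signal over background.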
